A study of Mus musculus with 4 samples.

Results

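Integrins and the focal adhesion proteins that tie them to actin were followed in mouse induced epiblast stem cells (iEpiSCs) without and with c-Jun, which pairs with Fos proteins to form AP-1, a DNA-binding regulator of transcription. The genes were chosen by name: the numbered integrin alpha subunits and Itgav, the integrin beta subunits, and 16 named focal adhesion genes. This gave 37 genes of the 29267 in the tables, namely 13 alpha subunits, 8 beta subunits and the 16 focal adhesion genes. The alpha subunits of leukocytes, whose symbols carry a letter in place of a number, fall outside that rule. RNA was sequenced from 2 libraries of genotype c-Jun-/- and 2 of wild type, with replicate numbers 2 and 3 in each genotype. All of the cells were converted from naive embryonic stem cells, which grow in 2i and LIF, by medium with 20 ng/ml Activin A, 20 ng/ml bFGF, 2 µM XAV939 and 2.5 µM IWR-1, on a plate coated with serum. The labels do not say whether the libraries of a genotype were separate cultures or clones. The p-values therefore cover just the variation among these 4 libraries, which may be technical. Genotype and cell line cannot be told apart here.

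Integrins are receptors made of 1 alpha and 1 beta chain that span the membrane and bind matrix proteins outside the cell. Talin and kindlin bind the short tail of the beta chain and switch the receptor to its active form. Vinculin, filamin, alpha-actinin and zyxin then link the adhesion to actin, while focal adhesion kinase, paxillin and p130Cas pass signals on. The epiblast sits on a basement membrane rich in laminin, and fibronectin and vitronectin are the serum proteins that cultured cells usually attach to.

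The libraries held 4666559 to 6341342 expected counts (estimated read counts per gene). Jun itself had 28.9 and 29.6 CPM (counts scaled to the library total) in the c-Jun-/- libraries, against 106 and 121 CPM in wild type (log2 fold change -1.96 ± 0.12), and the labels do not say which stretch of the gene was deleted. Across the 12598 genes that passed the filter on low counts, 8.21% were higher and 7.32% lower in c-Jun-/- by the quasi-likelihood test of edgeR, with p-values adjusted over all genes by the method of Benjamini and Hochberg and a threshold of 0.05. Genes of chromosome 8 were higher as a body in c-Jun-/-: their median log2 fold change was 0.51, and 57.2% of its 684 tested genes were called higher. Itgb1 and Bcar1 lie on that chromosome. Fold changes below are log2 ratios of c-Jun-/- over wild type from that fit, ± their standard error, with 2 libraries per genotype. Levels are given in CPM where genotypes are compared and in TPM (the share of transcripts, corrected for transcript length) where genes are compared with each other.

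Of the 37 genes, 33 passed the filter on low counts. The test called 3 of them higher in c-Jun-/- (Itga6, Itgb1 and Bcar1) and 6 lower (Itga5, Itgb3, Itgb4, Itgb5, Tln2 and Fermt2), and 24 did not pass the threshold. Among these, the direction of Itgb1 reverses once chromosome 8 genes are centred. In percent, 27.3% of the tested members were called in either direction, beside 15.5% of all tested genes. The share called higher was 9.09%, beside 8.21% of all genes, and the share called lower was 18.2%, beside 7.32%. In place of 6 members, 3 were called lower with DESeq2, 2 with effective length offsets (edgeR) and 0 by limma on log2 TPM, where 6 had an unadjusted p under 0.05. By role, 2 of 10 tested alpha subunits, 4 of 7 tested beta subunits and 3 of 16 focal adhesion genes were called. The median fold change of the 33 genes was -0.03, beside 0.0015 over all tested genes, with called members in both directions. In bulk RNA, fewer cells of a type and less RNA per cell cannot be told apart.

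**Figure D1:**
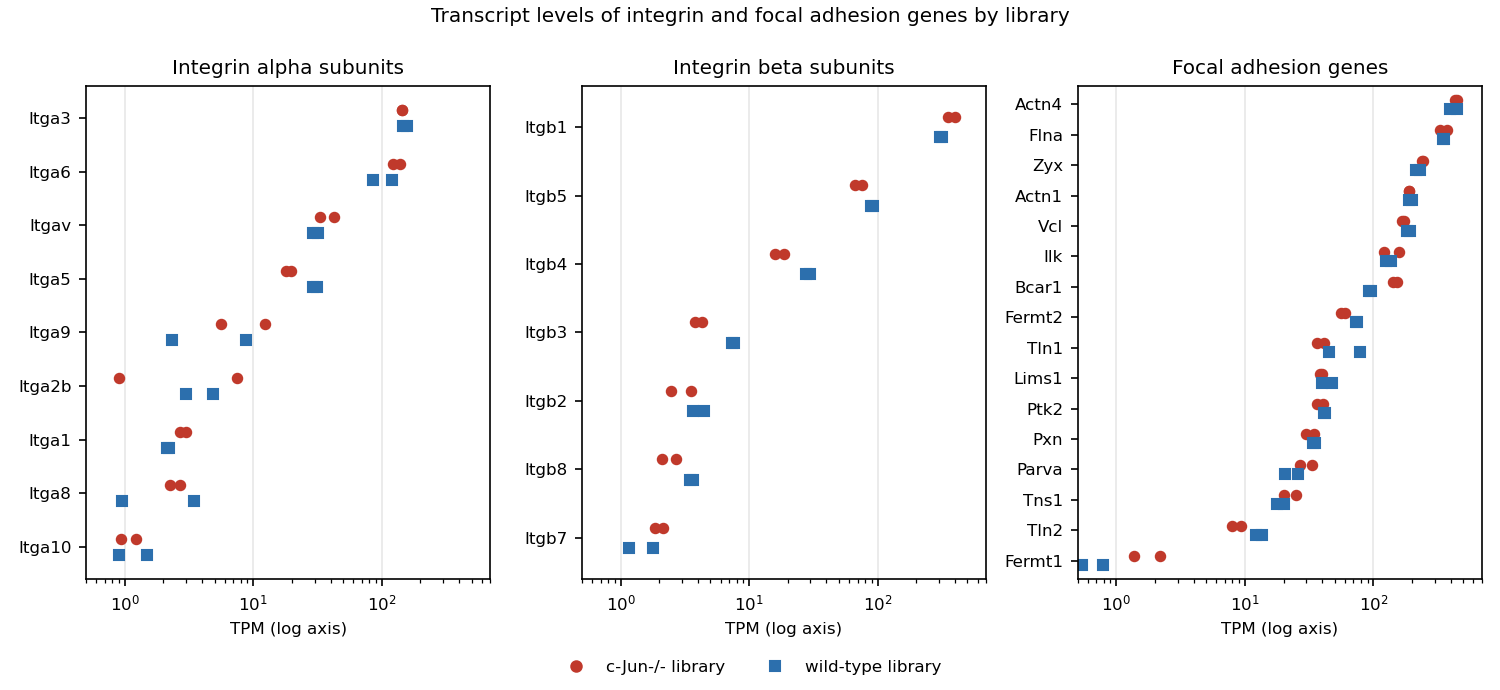
TPM (log axis) of each member with a mean of at least 1 TPM in either genotype, 1 point per library, for alpha subunits, beta subunits and focal adhesion genes. Itgb1 stood above all other integrin subunits, with 400.3 and 354 TPM in c-Jun-/- and 318 and 304 TPM in wild type, and Itga5, Itgb4 and Itgb3 lay apart between the genotypes, lower in c-Jun-/-.

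Among the alpha subunits, Itga3 and Itga6, which form laminin receptors with Itgb1, carried most of the transcript. Itga3 had 144 TPM in both c-Jun-/- libraries and 145 and 158 TPM in wild type, and Itga6 had 122 and 139 TPM in c-Jun-/- and 121 and 85.2 TPM in wild type. Below them came Itgav, the chain of the vitronectin receptors, with 33.1 and 42.4 TPM in c-Jun-/- and 32.0 and 28.9 TPM in wild type. The fibronectin receptor chain Itga5 followed with 19.8 and 18.1 TPM in c-Jun-/- and 29.1 and 31.6 TPM in wild type. Itgav and Itga5 overlapped in TPM in the wild-type libraries, whereas Itgav lay above Itga5 in both c-Jun-/- libraries. Every other alpha subunit had at most 12.3 TPM in a library.

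Itga5 was the alpha subunit that was lower in c-Jun-/-. It had 46.2 and 43.5 CPM in the c-Jun-/- libraries, against 66.5 and 72.8 CPM in wild type, and the genotypes did not overlap (as in 53.9% of all tested genes). Its fold change was -0.63 ± 0.12 (edgeR adjusted p = 0.000288), a level 1.55-fold higher in wild type. The gene (ENSMUSG00000000555) is at chr15:103344286-103366763, minus strand, in GRCm38. Leaving out each library in turn kept the call.

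Itga6 was the alpha subunit that was higher in c-Jun-/-. It had 188 CPM in both c-Jun-/- libraries, against 140 and 121 CPM in wild type, with no overlap. Its fold change was 0.53 ± 0.08 (edgeR adjusted p = 1.575e-05), a level 1.45-fold higher in c-Jun-/-. The length that RSEM assigned to Itga6 from its mix of transcripts was 2975 and 2557 bases in c-Jun-/- and 2315 and 2767 bases in wild type. With the effective length of each library as an offset the fold change was 0.39 and the call was lost (edgeR adjusted p = 0.2, in a range of 1.72e-10 to 0.349 over all alternatives). The gene (ENSMUSG00000027111) is at chr2:71745616-71858416, plus strand. The ratio of Itga6 to Itga5 in TPM was 6.15 and 7.68 in the c-Jun-/- libraries, against 4.16 and 2.70 in wild type.

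The remaining alpha subunits did not pass the test. Itga3 had 361 and 362 CPM in c-Jun-/- and 358 and 379 CPM in wild type, a fold change of -0.03 ± 0.06, and the genotypes overlapped. Itgav had 96.7 and 82.0 CPM in c-Jun-/- and 81.3 and 71.1 CPM in wild type (0.24 ± 0.11, edgeR adjusted p = 0.152), which did not overlap but lay close. Itga4, a receptor chain for fibronectin and VCAM1, had 18 and 15.8 expected counts in c-Jun-/- and 1.11 and 10.2 in wild type. Its fold change of 1.56 ± 0.70 did not pass (edgeR adjusted p = 0.142) and ran from 0.74 to 3.85 as each library was left out. Itga4 overlaps Cerkl on the opposite strand, and its few counts were partly fractional, so they are uncertain. Cerkl took 0 and 2.17 expected counts in c-Jun-/- and 0.89 and 4.58 in wild type. Itga1, a collagen receptor chain, had 8.72 and 10.0 CPM in c-Jun-/- and 6.72 and 7.09 CPM in wild type (0.43 ± 0.32). Itga1 overlaps Pelo on the same strand, and the expected counts of both genes were whole numbers in every library. Pelo took 150 and 107 expected counts in c-Jun-/- and 96 and 137 in wild type.

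Itga9, Itga2b, Itga8 and Itga10 lay under 10 CPM in every library, and none passed the test. Itga9, a chain that binds tenascin and osteopontin, had 48 and 32 counts in c-Jun-/- and 41 and 46 in wild type. Its TPM was 5.61 and 12.3 in c-Jun-/- and 2.35 and 8.77 in wild type, and the length RSEM assigned to it was 2644 and 1186 bases in c-Jun-/- and 6532 and 1977 bases in wild type. The fold change was -0.19 ± 0.33 and took the other sign with length offsets and on TPM. Itga2b, the platelet chain, had 7 and 19 counts in c-Jun-/- and 13 and 24 in wild type (-0.50 ± 0.59). Itga8, the nephronectin receptor chain, had 35 and 16 counts in c-Jun-/- and 24 and 16 in wild type (0.25 ± 0.47). Itga10, a collagen receptor chain, had 21 and 12 counts in c-Jun-/- and 12 and 17 in wild type (0.11 ± 0.54). In CPM the genotypes overlapped for Itga2b, Itga8 and Itga10, and both c-Jun-/- values lay below both wild-type values for Itga9. Itga8 overlaps the transcript Gm37701, which took 496 and 398 expected counts in c-Jun-/- and 399 and 362 in wild type. The counts of Itga8 itself were whole numbers in every library. Itga2, Itga7 and Itga11 fell under the filter on low counts with at most 6 counts in a library. Itga2 and Itga11 are collagen receptor chains and Itga7 is a laminin receptor chain of muscle.

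The beta subunits differed between genotypes in their shares of TPM. These shares were not centred for chromosome 8, which holds Itgb1 and had a median log2 fold change of 0.51. Itgb1, the partner of most alpha chains, was higher in c-Jun-/- against all genes but lower with chromosome 8 centred, while Itgb3, Itgb4 and Itgb5 were lower. Itgb1 made up 79.5% and 78.5% of the summed TPM of the beta subunits in the c-Jun-/- libraries, against 70.4% and 68.8% in wild type. The share of Itgb5 was 15.1% and 14.7% in c-Jun-/-, against 19.7% and 20.8% in wild type, and that of Itgb4 was 3.13% and 4.18% in c-Jun-/-, against 6.14% and 6.70% in wild type.

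Itgb1 (ENSMUSG00000025809, chr8:128685654-128733200, plus strand) had 804 and 735 CPM in c-Jun-/-, against 628 and 605 CPM in wild type. Both c-Jun-/- libraries lay above both wild-type libraries. The fold change was 0.32 ± 0.05 (edgeR adjusted p = 4.55e-05), a level 1.25-fold higher in c-Jun-/- and below the median of its chromosome. Once the median of chromosome 8 was subtracted from its genes, the value for Itgb1 was -0.19 and was called in the other direction (edgeR adjusted p = 0.0156, in a range of 7.68e-12 to 0.158 over all alternatives). The direction of Itgb1 was higher against all genes and lower against its chromosome.

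Itgb4, the partner of Itga6 in the hemidesmosomes of epithelia, had 47.9 and 45.2 CPM in c-Jun-/-, against 82.9 and 88.4 CPM in wild type. Both c-Jun-/- libraries lay below both wild-type libraries. Its fold change was -0.88 ± 0.12 (edgeR adjusted p = 9.37e-07), a level 1.84-fold higher in wild type. The gene (ENSMUSG00000020758) is at chr11:115974709-116008412, plus strand, and the lincRNA B230344G16Rik that overlaps it on the other strand had at most 5 counts in a library.

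Itgb3 and Itgb5, which pair with Itgav to bind vitronectin, were also lower. Itgb3 (ENSMUSG00000020689, chr11:104608000-104670476, plus strand) had 13.5 and 12.2 CPM in c-Jun-/-, against 23.1 and 22.6 CPM in wild type (-0.83 ± 0.21, edgeR adjusted p = 0.00465). Its call was kept without any single library and lost with DESeq2 (adjusted p = 0.0598), in a range of 0.000947 to 0.174 over the alternatives. Itgb5 (ENSMUSG00000022817, chr16:33829665-33949338, plus strand) had 122 and 110.1 CPM in c-Jun-/-, against 140.4 and 146 CPM in wild type. Its smaller fold change of -0.30 ± 0.09 (edgeR adjusted p = 0.0168) lost its call without c-Jun-/- replicate 3 (adjusted p = 0.187) or wild-type replicate 3 (0.121), in a range of 0.00323 to 0.187.

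Itgb8, the partner of Itgav that activates latent TGF-beta, had 11.4 and 10.0 CPM in c-Jun-/-, against 15.6 and 16.0 CPM in wild type. The genotypes did not overlap, yet the fold change of -0.56 ± 0.24 did not pass (edgeR adjusted p = 0.13). Itgb2, a chain of leukocyte integrins, had 24 and 26 counts in c-Jun-/- and 34 and 30 in wild type (-0.40 ± 0.41). Itgb7, another leukocyte chain, had 16 and 14 counts in c-Jun-/- and 8 and 13 in wild type (0.46 ± 0.59). Itgb6, an epithelial chain, had 0 counts in all 4 libraries, which allows up to 0.473 to 0.643 CPM by counting error alone.

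**Figure D2:**
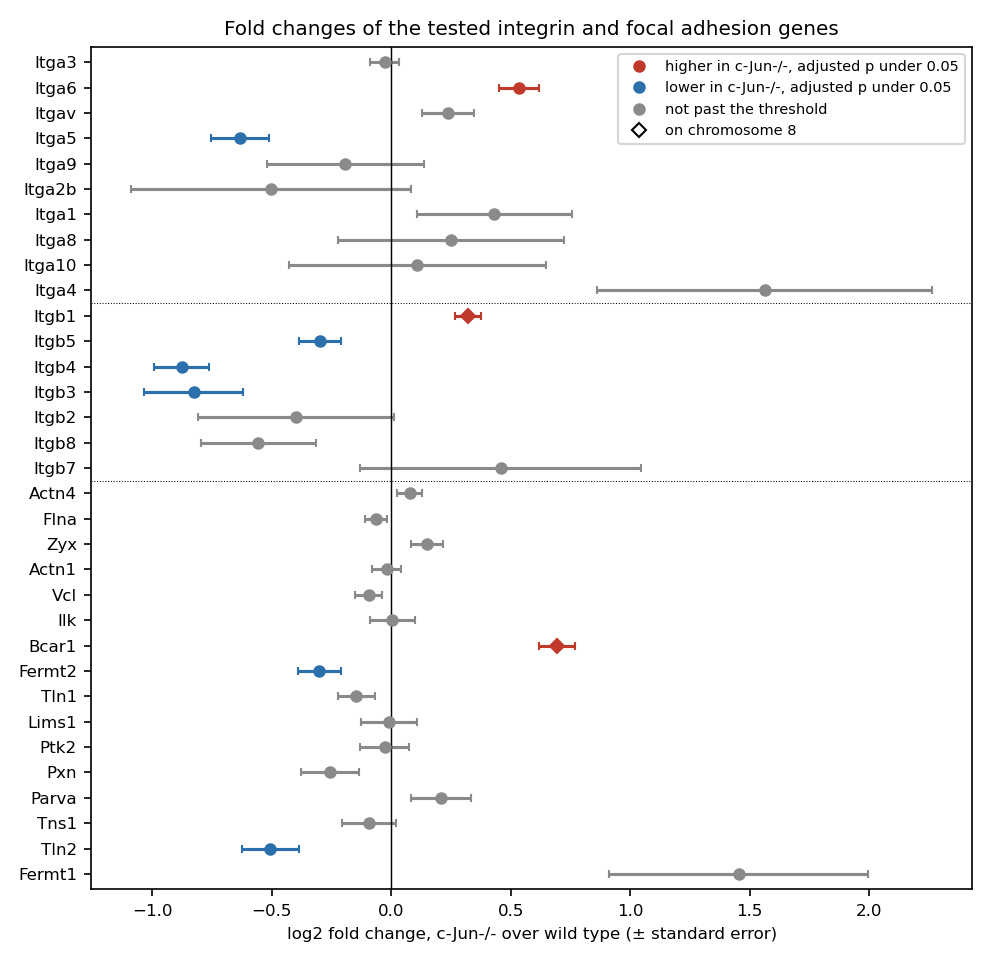
Log2 fold changes (c-Jun-/- over wild type) of the 33 tested members with standard errors, from top to bottom alpha subunits, beta subunits and focal adhesion genes, each ordered by mean TPM. Red marks genes called higher, blue genes called lower and grey genes that did not pass, and diamonds mark Itgb1 and Bcar1 on chromosome 8. Itgb4 lies at -0.88 and Itgb3 at -0.83.

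Among the proteins that switch integrins on, Tln2 and Fermt2 were lower in c-Jun-/-. Tln2, the second talin (ENSMUSG00000052698, chr9:67217087-67559703, minus strand), had 51.1 and 63.9 CPM in c-Jun-/-, against 84.6 and 77.4 CPM in wild type (-0.51 ± 0.12, edgeR adjusted p = 0.00266). The call was lost without c-Jun-/- replicate 2, where the fold change was -0.34 (adjusted p = 0.133, in a range of 8.6e-05 to 0.25). Fermt2, which encodes kindlin-2 (ENSMUSG00000037712, chr14:45458795-45530118, minus strand), had 103 and 100.1 CPM in c-Jun-/-, against 124 and 126 CPM in wild type. Its fold change of -0.30 ± 0.09 (edgeR adjusted p = 0.0193) is a small difference, and the call was lost without c-Jun-/- replicate 2 (0.0652), c-Jun-/- replicate 3 (0.112) or wild-type replicate 3 (0.103), in a range of 0.00619 to 0.159.

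Tln1, the talin with the higher level, had 163 and 156 CPM in c-Jun-/-, against 178 and 175 CPM in wild type, and did not pass (-0.15 ± 0.08, edgeR adjusted p = 0.232). In TPM, Tln1 stood at 41.4 and 36.2 in c-Jun-/- and 45.2 and 79.0 in wild type, and Tln2 at 7.90 and 9.33 in c-Jun-/- and 13.5 and 12.1 in wild type. The length RSEM assigned to Tln1 was 7252 and 7718 bases in c-Jun-/- and 7412 and 4222 bases in wild type. With length offsets the Tln1 value was -0.62, which did not pass either (edgeR adjusted p = 0.1415, in a range of 0.1415 to 0.5546 over the alternatives). Fermt1, the kindlin of epithelia, had 36 and 17 counts in c-Jun-/- and 7 and 11 in wild type. Its fold change of 1.45 ± 0.54 lay on the other side from Fermt2 but did not pass (edgeR adjusted p = 0.0675). It ran from 1.09 to 1.77 as each library was left out.

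The complex of Ilk, Parva and Lims1 (PINCH), which joins the beta tail to actin, showed no call. Ilk had 104 and 103 CPM in c-Jun-/- and 102 and 104 CPM in wild type (0.0052 ± 0.0934). Lims1 had 64.5 and 67.0 CPM in c-Jun-/- and 71.8 and 60.4 CPM in wild type (-0.01 ± 0.12). Parva, the alpha-parvin gene, had 55.3 and 62.4 CPM in c-Jun-/- and 53.2 and 48.3 CPM in wild type (0.21 ± 0.13, edgeR adjusted p = 0.3). Of the 3 genes only Parva had genotypes that did not overlap. Ilk overlaps Taf10 and Rrp8 on the opposite strand, and the labels do not state that strand was kept.

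Among the signalling proteins, Bcar1, which encodes the scaffold p130Cas, was higher in c-Jun-/-. It had 233 and 260 CPM in c-Jun-/-, against 154 and 150.4 CPM in wild type, a fold change of 0.69 ± 0.08 (edgeR adjusted p = 3.77e-08). The gene (ENSMUSG00000031955) is at chr8:111710474-111743809, minus strand. Its value was 0.18 once chromosome 8 genes were centred, and it was not called (adjusted p = 0.13, in a range of 4.46e-21 to 0.13). Ptk2, the focal adhesion kinase that phosphorylates p130Cas with Src, had 85.0 and 96.1 CPM in c-Jun-/- and 93.0 and 91.0 CPM in wild type (-0.03 ± 0.10). Pxn, the adaptor paxillin, had 49.5 and 58.1 CPM in c-Jun-/- and 63.1 and 64.6 CPM in wild type and did not pass (-0.26 ± 0.12, edgeR adjusted p = 0.174).

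The actin linkers, among them the abundant Actn4 and Flna, showed no call. Actn4, an alpha-actinin, had 431 and 446 TPM in c-Jun-/- and 396 and 449.7 TPM in wild type (0.08 ± 0.05 on counts). Actn1, its relative, had 353.5 and 365 CPM in c-Jun-/- and 354 and 373 CPM in wild type (-0.02 ± 0.06). Flna, the actin cross-linker filamin A, had 1025 and 1041 CPM in c-Jun-/- and 1086 and 1075 CPM in wild type, a fold change of -0.07 ± 0.05. Vcl (vinculin) had 485 and 478 CPM in c-Jun-/- and 525 and 504 CPM in wild type (-0.09 ± 0.06). Zyx (zyxin) had 304 and 308 CPM in c-Jun-/- and 263 and 288 CPM in wild type (0.15 ± 0.07, edgeR adjusted p = 0.137). Tns1 (tensin 1) had 68.2 and 75.3 CPM in c-Jun-/- and 72.0 and 80.4 CPM in wild type (-0.09 ± 0.11). Its sign turned with length offsets (0.29), and the length RSEM assigned to it was 6315 and 5415 bases in c-Jun-/- and 7645 and 7373 bases in wild type. None of these passed the test. Zyx overlaps Epha1 and Vcl overlaps Ap3m1, both on the opposite strand. Expected counts of Vcl and Ap3m1 were fractional in every library, so part of the Vcl counts may belong to the neighbour. Those of Zyx and Epha1 were whole numbers in every library, as where no read is divided between genes. Epha1 had 1532 and 1075 counts in c-Jun-/-, against 718 and 730 in wild type.

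**Figure D3:**
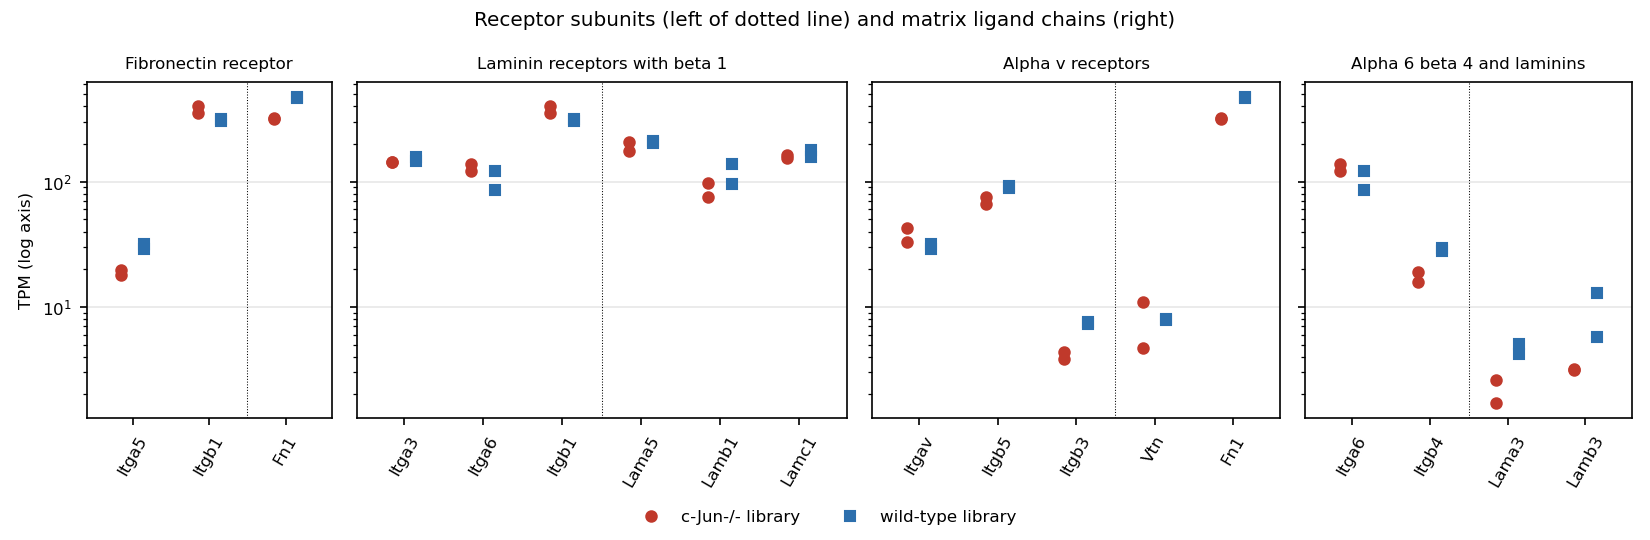
TPM (log axis) of receptor subunits, left of each dotted line, and of matrix ligand chains, right of it, with 1 point per library. Itga5 and Fn1 both lie lower in c-Jun-/-, as do Itgb4, Lama3 and Lamb3.

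Set side by side as textbook receptor pairs, Itga3 and Itga6 with Itgb1 had the highest transcript levels in TPM. Transcripts of the chains of their main ligand, laminin-511, were present in the same libraries. Lama5 had 208 and 175 TPM in c-Jun-/- and 211 and 206 TPM in wild type, and Lamc1 had 162 and 155 TPM in c-Jun-/- and 178 and 157 TPM in wild type. Lamb1 had 97.0 and 75.3 TPM in c-Jun-/- and 140 and 96.2 TPM in wild type. In the test on counts Lama5 (-0.18 ± 0.06, edgeR adjusted p = 0.0222) and Lamb1 (-0.29 ± 0.07, edgeR adjusted p = 0.00255) were lower and Lamc1 did not pass (-0.05 ± 0.06). The call of Lamb1 was lost with length offsets (-0.40, adjusted p = 0.204) and by limma on log2 TPM (0.324 and 0.329), and its genotypes overlapped in TPM. The call of Lama5 was lost with DESeq2 (adjusted p = 0.0655), length offsets (-0.076, adjusted p = 0.629) and limma on log2 TPM (0.562 and 0.566). It was also lost without c-Jun-/- replicate 3 (-0.16) or wild-type replicate 3 (-0.095), and the genotypes overlapped in TPM for Lama5 too. Itgb1 had 1.20 and 0.976 times the summed TPM of its 12 possible alpha partners in c-Jun-/-, against 0.946 and 0.954 times in wild type. That ratio was not centred for chromosome 8.

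The fibronectin pair was lower on the side of the receptor's alpha chain and of the ligand. Fn1 had 1170 and 1184 CPM in c-Jun-/-, against 1617 and 1719 CPM in wild type, a fold change of -0.50 ± 0.04 (edgeR adjusted p = 5.01e-10). Itga5, its main receptor chain, stood at -0.63 and Itgb1 at 0.32 (-0.19 with chromosome 8 centred). Fn1 transcript was more than 10 times as abundant as that of Itga5 per length, with 326 and 317 TPM in c-Jun-/- and 477 and 463 TPM in wild type.

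Of the vitronectin receptors, Itgav with Itgb5 had more transcript than the ligand. Itgb3 lay close to the ligand in c-Jun-/- replicate 2 and both wild-type libraries, and below it in c-Jun-/- replicate 3. Vtn had just 2.70 and 3.70 CPM in c-Jun-/- and 4.15 and 3.92 CPM in wild type. The order of Itgb3 and Vtn is therefore uncertain. Itgav with Itgb5 reached at least 28.9 TPM for the scarcer chain, while Vtn had 4.73 and 10.9 TPM in c-Jun-/- and 7.82 and 8.02 TPM in wild type. The culture plate was coated with serum, which carries vitronectin protein that RNA does not show. Itgb3 stood at 4.33 and 3.80 TPM in c-Jun-/- and 7.59 and 7.33 TPM in wild type, and Itgb5 had 17.5 times its level in both c-Jun-/- libraries, against 11.7 and 12.5 times in wild type.

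The pair of Itga6 and Itgb4 binds laminins that hold the chains Lama3 and Lamb3, both called lower in c-Jun-/-. Lama3 had 7.77 and 5.22 CPM in c-Jun-/-, against 14.8 and 12.5 CPM in wild type (-1.04 ± 0.29, edgeR adjusted p = 0.0124). Lamb3 had 6.82 and 6.96 CPM in c-Jun-/-, against 12.7 and 12.1 CPM in wild type (-0.85 ± 0.29, edgeR adjusted p = 0.0466). The call of Lama3 was lost without c-Jun-/- replicate 3 (0.0946) or wild-type replicate 2 (0.0896). That of Lamb3 was lost without each of the 4 libraries in turn: c-Jun-/- replicates 2 (0.141) and 3 (0.0965) and wild-type replicates 2 (0.153) and 3 (0.13). Itga6 exceeded Itgb4 7.72 and 7.39 times in TPM in c-Jun-/-, against 4.37 and 2.88 times in wild type.

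The promoters of the members were searched for the AP-1 site TGANTCA and the related site TGACGTCA, on both strands, from 250 bases before to 50 bases after the start site. Windows were at hand for 28 of the 37 members (34 windows, some genes having several), and none for Itga6, Itgb3, Itgb4 and Tln2 among the called genes. TGANTCA was in 4 of the 34 windows (11.8%), beside 7.81% of all 32851 windows, and TGACGTCA was in 0, beside 1.79%. The 4 windows belong to Actn4, Zyx, Itga3 and Itga9, none of which was called. The windows of Itga5, Itgb1, Itgb5, Bcar1 and Fermt2, which were called, held neither set of letters. The windows below come from RefSeq and are shown to set the ones with the letters TGANTCA (Zyx and Actn4, in capitals) beside called genes without them (Itga5, Itgb5 and Itgb1), each from 5′ to 3′ on the gene's strand.
Zyx promoter, GRCm38.p6, chr6:42349578-42349877, plus strand: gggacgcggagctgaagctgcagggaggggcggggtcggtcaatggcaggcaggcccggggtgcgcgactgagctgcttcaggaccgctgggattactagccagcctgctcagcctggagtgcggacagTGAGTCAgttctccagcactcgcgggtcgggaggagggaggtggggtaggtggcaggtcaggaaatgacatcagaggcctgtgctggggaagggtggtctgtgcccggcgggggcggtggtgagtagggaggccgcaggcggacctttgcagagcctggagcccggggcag
Actn4 promoter, GRCm38.p6, chr7:28962283-28962582, minus strand: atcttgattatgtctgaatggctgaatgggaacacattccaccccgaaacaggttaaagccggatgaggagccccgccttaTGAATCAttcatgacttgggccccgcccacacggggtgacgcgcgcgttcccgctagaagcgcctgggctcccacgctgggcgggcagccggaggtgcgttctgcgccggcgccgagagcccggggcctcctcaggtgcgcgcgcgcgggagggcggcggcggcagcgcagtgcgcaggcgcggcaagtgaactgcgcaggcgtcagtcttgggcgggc
Itga5 promoter, GRCm38.p6, chr15:103366742-103367041, minus strand: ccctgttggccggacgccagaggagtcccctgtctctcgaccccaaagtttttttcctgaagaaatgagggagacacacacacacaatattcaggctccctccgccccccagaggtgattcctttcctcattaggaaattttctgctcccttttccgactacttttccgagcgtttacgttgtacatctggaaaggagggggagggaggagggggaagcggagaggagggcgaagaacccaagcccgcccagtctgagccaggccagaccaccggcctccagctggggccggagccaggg
Itgb5 promoter, GRCm38.p6, chr16:33829415-33829714, plus strand: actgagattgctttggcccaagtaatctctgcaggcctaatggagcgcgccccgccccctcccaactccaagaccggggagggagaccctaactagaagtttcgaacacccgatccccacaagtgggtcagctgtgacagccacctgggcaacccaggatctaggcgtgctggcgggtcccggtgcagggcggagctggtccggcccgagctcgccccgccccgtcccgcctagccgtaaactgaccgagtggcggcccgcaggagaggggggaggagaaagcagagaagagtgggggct
Itgb1 promoter, GRCm38.p6, chr8:128685404-128685703, plus strand: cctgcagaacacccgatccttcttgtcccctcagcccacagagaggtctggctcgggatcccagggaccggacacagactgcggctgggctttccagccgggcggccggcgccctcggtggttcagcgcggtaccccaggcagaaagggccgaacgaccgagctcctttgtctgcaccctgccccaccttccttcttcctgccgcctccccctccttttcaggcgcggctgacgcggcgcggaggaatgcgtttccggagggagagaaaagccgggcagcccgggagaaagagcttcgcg
The first base of the capitals lies 121 bases before the start site in Zyx and 169 bases before it in Actn4. The member windows had a median GC content of 63.2%, beside 52.7% in all windows. A match is a run of letters and does not show binding, and its absence speaks only of this window.

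Beyond the members, 70 other genes of integrin adhesion and signalling were listed, of which 64 were tested, 6 were higher and 6 lower (each 9.38%, beside 8.21% and 7.32% of all genes), with a median fold change of -0.02. Myh9, the heavy chain of non-muscle myosin IIA that pulls on adhesions, had 590 and 577 CPM in c-Jun-/-, against 908 and 957 CPM in wild type (-0.68 ± 0.05, edgeR adjusted p = 1.98e-11). Its close relative Myh10 did not pass (0.09 ± 0.06). Elmo1, which with Dock proteins activates Rac (-0.74 ± 0.10), and the PDZ and LIM domain genes Pdlim5 (-0.72 ± 0.10) and Pdlim7 (-0.41 ± 0.07) were lower as well. The filamin gene Flnc (0.70 ± 0.08) and Sorbs3 (0.94 ± 0.17), whose product vinexin binds vinculin, were higher. Arhgef7, an exchange factor that joins Git1 and paxillin (0.74 ± 0.10), is a chromosome 8 gene whose value was 0.23 after centring (adjusted p = 0.122). Tns2 (tensin 2, 0.57 ± 0.14) was called higher but not without c-Jun-/- replicate 3 (adjusted p = 0.0535). Lasp1 (0.23 ± 0.07) lost its call without c-Jun-/- replicate 3 (0.287) or wild-type replicate 2 (0.0852). The parvin gene Parvb (1.26 ± 0.41) lost its call without c-Jun-/- replicate 2 (0.242) or wild-type replicate 2 (0.208).

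Of 14 membrane proteins that associate with integrins, all tested, 2 were higher (14.3%, beside 8.21% of all genes) and 5 lower (35.7%, beside 7.32%), with a median of -0.25. Basigin (Bsg) had 381 and 414 CPM in c-Jun-/-, against 480.2 and 541 CPM in wild type (-0.36 ± 0.06, edgeR adjusted p = 6.92e-05). The tetraspanin Cd63 stood at -0.54 ± 0.11 (edgeR adjusted p = 0.000817), while Cd151, the tetraspanin that binds laminin receptors, did not pass (-0.06 ± 0.09). Syndecan 2 (Sdc2, -0.41 ± 0.11) lost its call without c-Jun-/- replicate 3 (adjusted p = 0.111). Plaur, the urokinase receptor, had 15.5 and 16.3 CPM in c-Jun-/-, against 7.71 and 9.70 CPM in wild type (0.86 ± 0.26, edgeR adjusted p = 0.0179), a call lost without c-Jun-/- replicate 3 (0.0595) or wild-type replicate 2 (0.124). Slc3a2, Cd81 and Sdc4 stood at 0.22, -0.20 and -0.40, and each lost its call without at least 1 library: Slc3a2 and Sdc4 without c-Jun-/- replicate 2 (0.255 and 0.464) or wild-type replicate 2 (0.213 and 0.319), and Cd81 without c-Jun-/- replicate 2 (0.0564), c-Jun-/- replicate 3 (0.172) or wild-type replicate 3 (0.198).

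Of 53 matrix ligands of integrins, 45 were tested, 10 were higher and 10 lower (each 22.2%, beside 8.21% and 7.32% of all genes), with a median of -0.01. The basement membrane genes Nid2 (nidogen 2, 0.54 ± 0.07), Col18a1 (0.37 ± 0.06) and Hspg2 (perlecan, 0.33 ± 0.06) were higher. Frem2 (-0.36 ± 0.06) and Frem1 (-1.29 ± 0.24), matrix proteins of the epidermal basement membrane, Mfge8, a ligand of Itgav receptors (-0.44 ± 0.08), and Postn (periostin, -1.28 ± 0.24) were lower. Cdh1, which encodes E-cadherin and is the ligand of a leukocyte integrin, was called at 0.40 ± 0.05. It is a chromosome 8 gene whose value was -0.12 after centring (adjusted p = 0.0966). Npnt and Tnc, ligands of Itga8 and Itga9, stood at 0.15 ± 0.21 and 0.57 ± 0.17, the second of them called (edgeR adjusted p = 0.0174) but not without c-Jun-/- replicate 3 (0.0898) or wild-type replicate 2 (0.147).

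Of 12 epiblast stem cell markers, all of them detected and tested, 2 were higher in c-Jun-/- (16.7%, beside 8.21% of all genes) and 7 lower (58.3%, beside 7.32%). Pou5f1, which naive cells express too, had 723 and 726 TPM in c-Jun-/- and 644 and 636 TPM in wild type. Fgf5, a marker of the primed state, had 157 and 137 TPM in c-Jun-/- and 198 and 183 TPM in wild type (-0.33 ± 0.07). Otx2, a regulator of that state, had 57.8 and 66.0 TPM in c-Jun-/- and 139 and 151 TPM in wild type (-1.18 ± 0.11). Sox2 had 17.8 and 15.8 TPM in c-Jun-/- and 42.9 and 33.8 TPM in wild type (-1.14 ± 0.16). Of 8 leukocyte markers, 3 had 0 counts in every library, Cd3e and Lyz2 among them, and 2 were tested, with none called. Of 6 platelet markers, Pf4, Gp9 and Gp6 had 0 counts in every library. The leukocyte markers summed to 47.8 and 49.2 TPM in c-Jun-/- and 48.2 and 61.3 TPM in wild type, and the platelet markers to 1.04 and 2.92 TPM in c-Jun-/- and 1.41 and 2.30 TPM in wild type. The 5 leukocyte alpha subunits outside the rule summed to 1.12 and 0.70 TPM in c-Jun-/- and 1.44 and 1.52 TPM in wild type, and none was called. The 10 endoderm markers summed to 287 and 289 TPM in c-Jun-/- and 351 and 359 TPM in wild type. Of the 7 tested, 4 were lower (57.1%, beside 7.32% of all genes), Gata6, Cxcr4 and Cpm among them, and none was higher. Afp and Ttr were at 0. The 10 fibroblast markers summed to 31.3 and 41.8 TPM in c-Jun-/- and 47.9 and 44.3 TPM in wild type. Of the 8 tested, 1 was higher (12.5%, beside 8.21% of all genes) and 2 lower (25%, beside 7.32%). The 9 naive markers summed to 23.6 and 18.3 TPM in c-Jun-/- and 7.13 and 9.15 TPM in wild type. Of the 5 tested, 2 were higher (40.0%, beside 8.21% of all genes) and none was lower. The fold changes of these 5 ran from -0.12 to 6.98, and Nr0b1, Prdm14 and Dppa3 were at 0. The 6 endothelial markers summed to 6.02 and 6.64 TPM in c-Jun-/- and 3.49 and 5.53 TPM in wild type (Tie1 and Emcn at 0). The 6 trophoblast markers summed to 22.8 and 20.6 TPM in c-Jun-/- and 28.2 and 23.4 TPM in wild type. Of the 3 trophoblast markers tested, 1 was higher (33.3%, beside 8.21% of all genes) and 1 lower (33.3%, beside 7.32%). The part of these cells in the changes of Itga5, Itga6, the beta subunits and Fn1 was not tested.

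**Figure D4:**
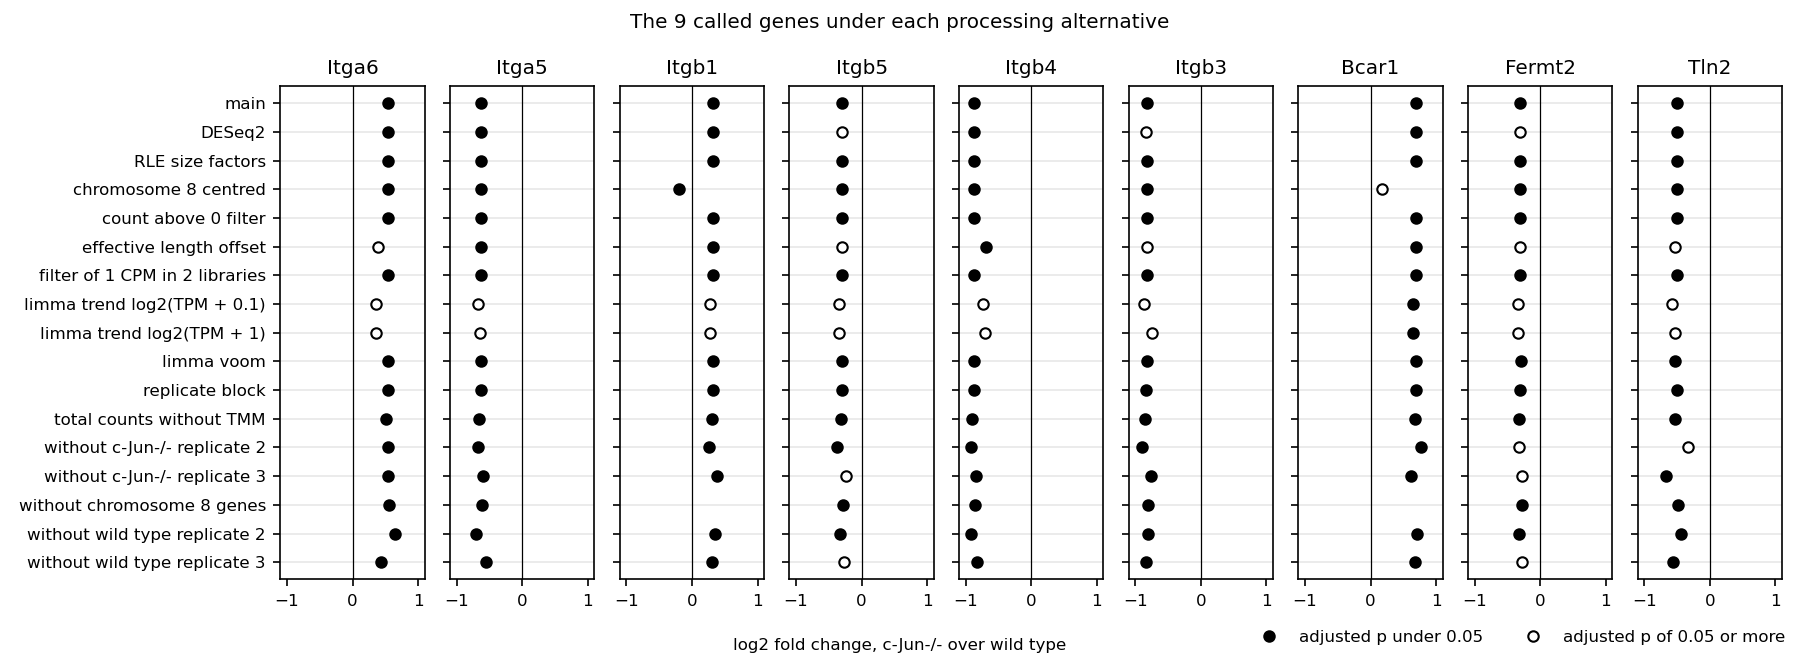
Log2 fold changes (c-Jun-/- over wild type) of the 9 called members in the reported fit (top row) and under each alternative, filled where the adjusted p was under 0.05. Itgb1 changes sign when chromosome 8 is centred, and Itga5 and Itgb4 lose their calls only in the limma fits on log2 TPM.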

How the data were processed

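RNA was measured in 4 mouse iEpiSC libraries, grouped by title and genotype label. Per the labels' protocols, libraries were made with an Illumina TruSeq RNA kit, with no statement that strand was kept. Per the submitters' processing notes, bcl2fastq, RSEM and Bowtie2 were used with build mm10, and the sources used here give no versions, options or annotation release. The authors deposited 1 table per library with an expected count, TPM, FPKM and length per gene, per the file headers. FPKM values as deposited were not used in a test. Gene identifiers were matched to symbols in GENCODE M21 (GRCm38), which held 28756 of 29267.

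Expected counts, as deposited, were rounded and tested with edgeR 4.0.16 (quasi-likelihood F test, R 4.3.3) after filterByExpr (minimum count 10, total 15) and TMM scaling (factors 0.988 to 1.01), with Benjamini-Hochberg adjustment over all 12598 genes and a threshold of 0.05. The test was tried on simulated counts. The biological coefficient of variation was 6.5%. No libraries were merged, as replicates were further apart than sampling of reads gives (chi-square over its degrees of freedom, 2.51 in c-Jun-/- and 2.54 in wild type). CPM values use TMM-scaled library sizes. TPM values are as the authors deposited them. Floors of 3 counts cover counting error only.

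The members and gene lists were chosen with earlier results of these data known. All members are accounted for. From the other lists, called genes averaging 5 CPM or more are named, up to 10 a list by smallest p, and ligands of the receptor pairs are given too. Some items of these lists are not reported here. Myh10 and Cd151 were chosen after their values were seen. Alternatives were other scalings and filters, DESeq2 1.42.0, limma 3.58.1 (voom, and a trend fit on log2(TPM + 1) or log2(TPM + 0.1)), effective length offsets, the replicate number as a block, chromosome 8 genes centred or left out, and leaving out each library.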

Additional observations from a re-analysis of the deposited data

How the results depend on the processing

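RLE scaling, total counts, both other filters and limma voom left the counts of genes and members called within 1.5 times of those reported. DESeq2 called 650 genes higher and 473 lower, effective length offsets 511 and 340, and limma on log2(TPM + 1) or log2(TPM + 0.1) 250 and 170 or 224 and 150. Centring chromosome 8 gave 651 higher genes and leaving it out 673. Of the members, 3 were lower with DESeq2, 2 with length offsets and 0 in both limma fits on TPM (6 at an unadjusted p under 0.05, and 6 by limma voom after adjustment), and 1 was higher in both limma fits, with chromosome 8 centred and without it. Without single libraries the members called lower ranged from 4 to 6 and those called higher stayed at 3. The replicate numbers did not pair the samples (correlation of same-number deviations -0.0031 over 10956 genes). With the replicate block 1250 genes were higher and 1127 lower, and 3 members were higher and 6 lower.

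Members that changed sign were uncalled in every case but Itgb1, at -0.19 with chromosome 8 centred. With length offsets and on log2(TPM + 1) and log2(TPM + 0.1), Itga9 stood at 0.77, 0.71 and 0.85, Itga10 at -0.069, -0.062 and -0.096, and Tns1 at 0.29, 0.23 and 0.24. Flna stood at 0.044 with length offsets, Ilk at -0.016 with total counts and Lims1 at 0.0098 without chromosome 8. As each library was left out, the values ran from -0.071 to 0.018 for Itga3, -1.65 to 0.23 for Itga2b, -0.14 to 0.61 for Itga8 and -0.087 to 0.34 for Itga10. They ran from -0.060 to 0.023 for Actn1, -0.0137 to 0.0255 for Ilk, -0.12 to 0.12 for Lims1 and -0.11 to 0.066 for Ptk2. The causes were not tested. Counts under about 50 per library limit Itga4, Itga8, Itga9, Itga10, Itga2b, Itgb2, Itgb7 and Fermt1. Itga1, with 34 to 55 counts, is limited too.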
